A study of Mus musculus with 2 samples.

Results

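Of the 8 genes of NAD salvage, NAD phosphorylation and PARP1 chosen by name, 7 could be matched to a probe, among 20618 genes matched in all. The 8 were Nampt, Nmnat1, Nmnat3, Nadsyn1, Nadk, Nadk2, Nnt and Parp1. Members were the non-control probes whose RefSeq accession matched one of these symbols in a gene table, and 8 such probes were found, 2 of them for Nadk and 1 for each of Nampt, Nmnat1, Nmnat3, Nadsyn1, Nadk2 and Parp1. Nnt, which encodes the mitochondrial transhydrogenase that makes NADPH from NADH, matched no probe by this rule and was not analysed here. Of the 39085 probes 11970 had no symbol in the table. Among them are probes with an older RefSeq accession that could be that of Nnt, which was left undecided. Nnt may therefore be present on the array. The study took leukaemia cells from mouse bone marrow (B-ALL, a B-cell acute lymphoblastic leukaemia; age label 8 weeks) and sorted them into SoNar-high and SoNar-low populations. SoNar is a genetically encoded fluorescent sensor of cytosolic NADH and NAD+, read here as the ratio of its fluorescence under violet to that under blue light, which is higher when NADH is high relative to NAD+. Both populations carried the sensor and differed, by the labels, in this ratio alone, although N-myc-high and N-myc-low stand in the sample titles. Each population's total RNA went onto 1 one-colour Agilent array. The strain, the way the leukaemia was made and the number of mice pooled were not given in the sources used here.

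NAD is both an electron carrier and a consumed substrate. Most cells rebuild it from nicotinamide: NAMPT joins nicotinamide to phosphoribosyl pyrophosphate to give nicotinamide mononucleotide, and NMNAT enzymes add the adenylate group that completes NAD. NAD synthetase makes NAD by amidation at the end of the routes from nicotinic acid and tryptophan, NAD kinases add the phosphate that turns NAD into NADP, and PARP1 splits NAD to attach ADP-ribose chains to proteins at DNA breaks. NAMPT inhibitors have been studied against leukaemia because the nicotinamide route is the main source of NAD in many malignant cells.

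With 1 array per population there was no replicate and no difference below could be tested: the number of arrays is what limits precision. Of 43020 non-control spots on each array, the scanner software called 44.8% (SoNar-high) and 72.9% (SoNar-low) well above background, and 10521 genes were measured on both. Differences are log2 values, SoNar-high minus SoNar-low, of signals divided by each array's 75th percentile (409 intensity units for SoNar-high, 470 for SoNar-low). The median of all measured genes lay at 0.22 on this scale. A difference between 1 spot of each array had a median SD of 0.15, with a 95th percentile of 0.62, from 197 probes printed as 10 spots. That SD covers spots on a slide and not sorts or animals. The arrays were scanned separately, so a scan effect cannot be told apart from the populations. A lower signal from fewer cells of a type and one from less RNA per cell also cannot be told apart in such bulk samples. Of 12 B-lineage marker genes 9 were measured on both arrays, among them Cd79a, Cd79b, Pax5 and Ebf1, and their differences ran from -0.22 to 0.98. Igll1, Rag1 and Rag2, the other B-lineage markers, were not well above background on either array.

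The promoters of the 2 members furthest above and of the member furthest below are shown because the sample titles name N-myc, whose complex with MAX binds the E-box CACGTG. Each window holds the 250 bases before a transcription start, from RefSeq on GRCm38.p6, 5′ to 3′ on the gene's strand. Capitals mark every E-box CACGTG and every GC box GGGCGG, the SP1 motif, on either strand (CCGCCC where it lies on the other strand). The Nampt window is chr12:32820085-32820334 on the plus strand, the Nmnat3 window is chr9:98296320-98296569 on the plus strand and lies inside the gene's span, and the Parp1 window is chr1:180568641-180568890 on the plus strand.
Nampt: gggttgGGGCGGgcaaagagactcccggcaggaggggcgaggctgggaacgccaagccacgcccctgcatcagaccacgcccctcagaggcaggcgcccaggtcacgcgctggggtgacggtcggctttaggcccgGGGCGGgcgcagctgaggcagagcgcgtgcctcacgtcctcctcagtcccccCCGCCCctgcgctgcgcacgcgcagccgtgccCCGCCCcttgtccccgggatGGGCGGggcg
Nmnat3: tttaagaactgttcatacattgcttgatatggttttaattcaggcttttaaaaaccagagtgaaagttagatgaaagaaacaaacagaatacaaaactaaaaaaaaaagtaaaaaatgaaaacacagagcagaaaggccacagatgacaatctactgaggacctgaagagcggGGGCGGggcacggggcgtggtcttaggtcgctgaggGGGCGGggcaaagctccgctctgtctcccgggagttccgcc
Parp1: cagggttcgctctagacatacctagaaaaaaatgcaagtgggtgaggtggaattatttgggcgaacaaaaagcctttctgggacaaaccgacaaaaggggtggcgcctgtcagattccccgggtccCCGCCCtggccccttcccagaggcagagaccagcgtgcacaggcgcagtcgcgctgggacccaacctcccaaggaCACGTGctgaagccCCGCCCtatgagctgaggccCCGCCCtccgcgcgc
The Nampt window held 0 E-boxes and 5 GC boxes, the Nmnat3 window 0 and 2, and the Parp1 window 1 and 3. Of the 8 windows found for 6 members 2 held an E-box: that of Parp1 and 1 of the 2 Nadk windows (chr4:155563565-155563814, plus strand; sequence not shown). No E-box overlapped a GC box. Among 32851 promoter windows of the same length 6.02% held an E-box and 32.7% a GC box. The cyclic AMP response element TGACGTCA, present in 1.55% of the windows, was in none of these 3. The Nampt window had 75.6% G and C bases, the Nmnat3 window 45.6% and the Parp1 window 61.6%. A match of letters is a description and not a binding site.

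Among the 7 measured members, taken per gene, the salvage genes Nampt and Nmnat3 lay highest and Parp1 lowest. Differences ran from -0.08 (Parp1) to 0.95 (Nampt) with a median of 0.30, against 0.22 for all measured genes. The member in the middle is Nadk, whose probes disagree, and with the brightest probe of each gene the median was 0.56. Of the 7 measured members 6 were above 0, where 66.9% of all measured genes were, and 4 were above the median gene. None reached 2-fold, the size at which a gene was called, with no p-value behind it: 0 members were called higher and 0 lower, where 2.4% of all measured genes were called higher and 4.39% lower. At 1.5-fold, 2 of 7 members were higher and 0 lower, against 20.4% and 10.2% of all measured genes. All 8 member probes were well above background on both arrays.

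**Figure D1:**
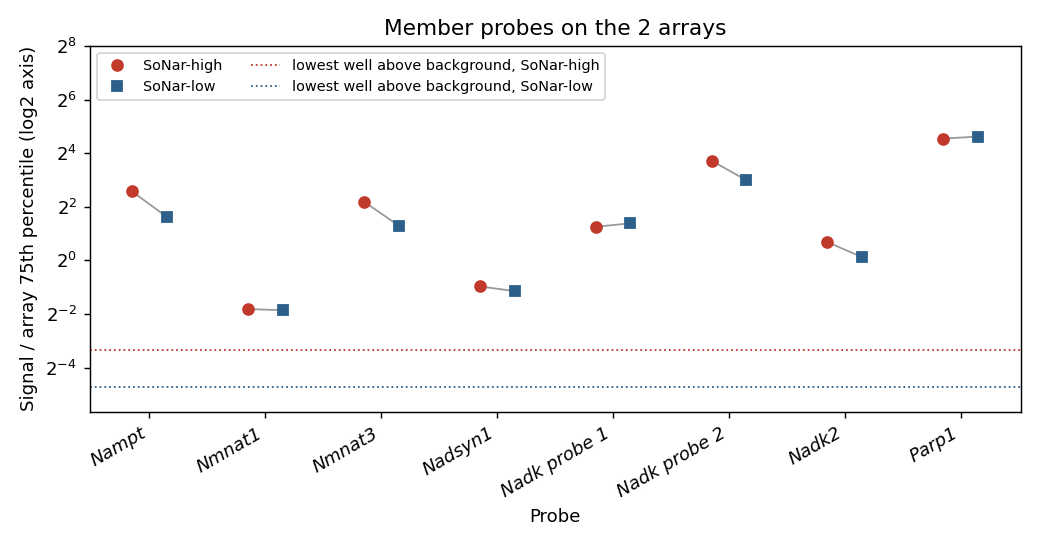
Signal of each member probe on the SoNar-high array (red circles) and the SoNar-low array (blue squares), as a multiple of the array's 75th percentile on a log2 axis, with dotted lines at the lowest signal well above background. Nampt (5.96 for SoNar-high and 3.08 for SoNar-low) and Nmnat3 (4.58 and 2.46) slope down to the SoNar-low array, and the 2 Nadk probes slope in opposite directions.

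Salvage begins with Nampt (NM_021524), which encodes its rate-limiting enzyme. Its probe gave 2437 intensity units on the SoNar-high array, against 1449 units on the SoNar-low array. After scaling this was a difference of 0.95, or 1.93-fold, just under the 2-fold rule. Of all measured genes 3.26% had a difference at least as high. The scanner software's own error estimates for the 2 signals combine to 0.20 on the log2 difference. Before any scaling the signals differed by 0.75, and the rest of the value came from the scaling.

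Of the genes for NMNAT enzymes, which complete NAD, Nmnat3 lay above Nmnat1. Nmnat3 (NM_144533), which encodes the form assigned to mitochondria, gave 1873 units on the SoNar-high array, against 1156 units on the SoNar-low array. Its difference was 0.90, or 1.86-fold, and 4.56% of measured genes were at least as high. Nmnat1 (NM_133435), which encodes the nuclear form, gave 116 units on the SoNar-high array, against 129 units on the SoNar-low array, a difference of 0.05. Nmnat1 was the dimmest member probe over background, at 2.85 times the lowest detected signal of the SoNar-high array and 7.30 times that of the SoNar-low array. Its software error, 0.25 on the log2 scale, exceeded its difference. Nmnat2, the form of neurons and the third gene of the family, gave 9.98 units on the SoNar-high array, too dim to be called, and 30.1 units on the SoNar-low array, where it was called well above background, so no difference was measured and its bound gave no fold. The 0.85 that separates Nmnat3 from Nmnat1 is a gap between single probes and had no test; it was 0.39 after loess, 0.27 after quantile normalization and 0.22 in the series matrix.

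Nadsyn1 (NM_030221) encodes NAD synthetase, the last step of the routes from nicotinic acid and tryptophan. Its probe gave 209 units on the SoNar-high array, against 212 units on the SoNar-low array. The difference of 0.18 lay just under the median gene and within its software error of 0.22.

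The kinases that turn NAD into NADP were Nadk, the cytosolic enzyme, and Nadk2, the mitochondrial one. Both Nadk probes carry the same accession (NM_001159637) and went opposite ways. The first gave 973 units on the SoNar-high array, against 1227 units on the SoNar-low array, a difference of -0.13. The second gave 5382 units on the SoNar-high array, against 3740 units on the SoNar-low array, a difference of 0.73. Their mean, 0.30, therefore describes neither probe. Such disagreement was common on these arrays: of 2021 genes with 2 measured probes 42.7% had probes of opposite sign, and 20.4% had a gap at least as large as the 0.86 of Nadk, where the median gap was 0.43. Which transcripts each probe reads was not analysed here. Nadk2 (NM_001085410) gave 654 units on the SoNar-high array, against 512 units on the SoNar-low array. Its difference was 0.56, or 1.47-fold, and 22.7% of measured genes were at least as high.

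Parp1 (NM_007415), which encodes the main DNA-damage poly(ADP-ribose) polymerase, stood far above background on both arrays. It gave 9533 units on the SoNar-high array, against 11556 units on the SoNar-low array. Its difference was -0.08, and 28.7% of measured genes were as low or lower. This lay 0.30 under the median gene, with a software error of 0.20.

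**Figure D2:**
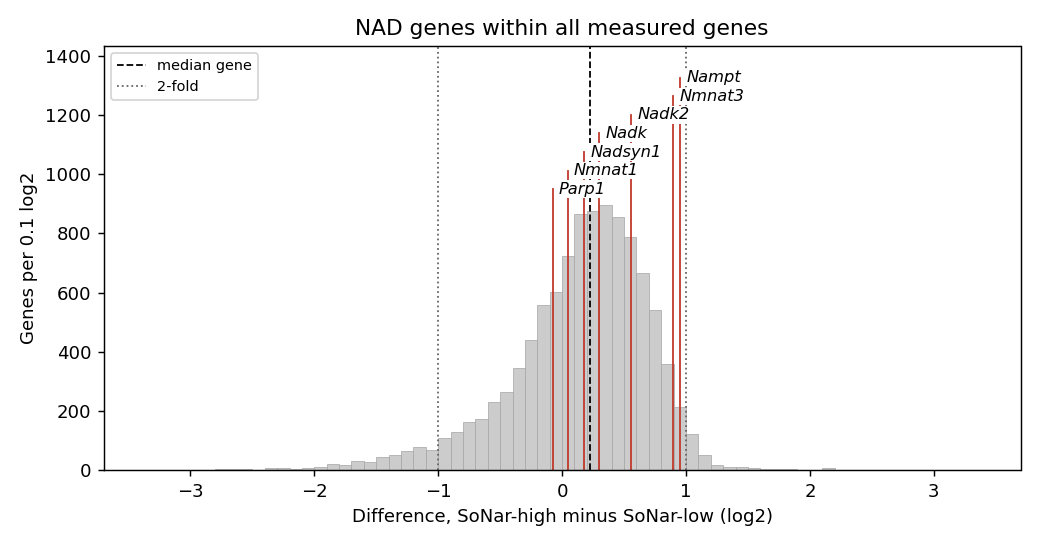
Histogram of the difference, SoNar-high minus SoNar-low (log2), over 10521 genes measured on both arrays, with a red line for each member, the median gene at 0.22 (dashed) and 2-fold (dotted). Nampt and Nmnat3 lie in the upper shoulder just inside 2-fold, and Parp1 lies under the median gene.

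Differences on these arrays varied with signal level across all probes. A loess curve of difference on level, over all probes well above background on both arrays, lay at 0.35 at the level of Nampt, 0.33 at that of Nmnat3 and 0.29 at that of Parp1, but at -0.14 at the level of Nmnat1 and -0.03 at that of Nadsyn1. With that curve removed Nampt lay at 0.61, Nmnat3 at 0.57, Nadk2 at 0.36, Nadsyn1 at 0.21, Nmnat1 at 0.18, Nadk at -0.029 and Parp1 at -0.37. Measured against the median gene of each processing, Nampt and Nmnat3 were above it in 9 of 9 alternatives and Nadk2 in 8 of 8, and Parp1 was below it in 9 of 9. The other 3 alternatives shift every gene alike and cannot change this, so they were not counted. Under the 2 filters on dim probes, the other background call and the brightest probe, these genes kept their values where measured. Only the median gene moved there, and Nampt was also 0.95 with outlier spots kept. Quantile normalization, loess, normexp and the series matrix gave these genes new values. Nampt lay between 0.44 and 0.90 above the median gene, Nmnat3 between 0.42 and 0.85, and Nadk2 between 0.22 and 0.51. Nmnat1, Nadsyn1 and Nadk lay on either side of it, above in 3 of 8, 6 of 8 and 5 of 9. These processings reuse the same 2 arrays and give no replicate.

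**Figure D3:**
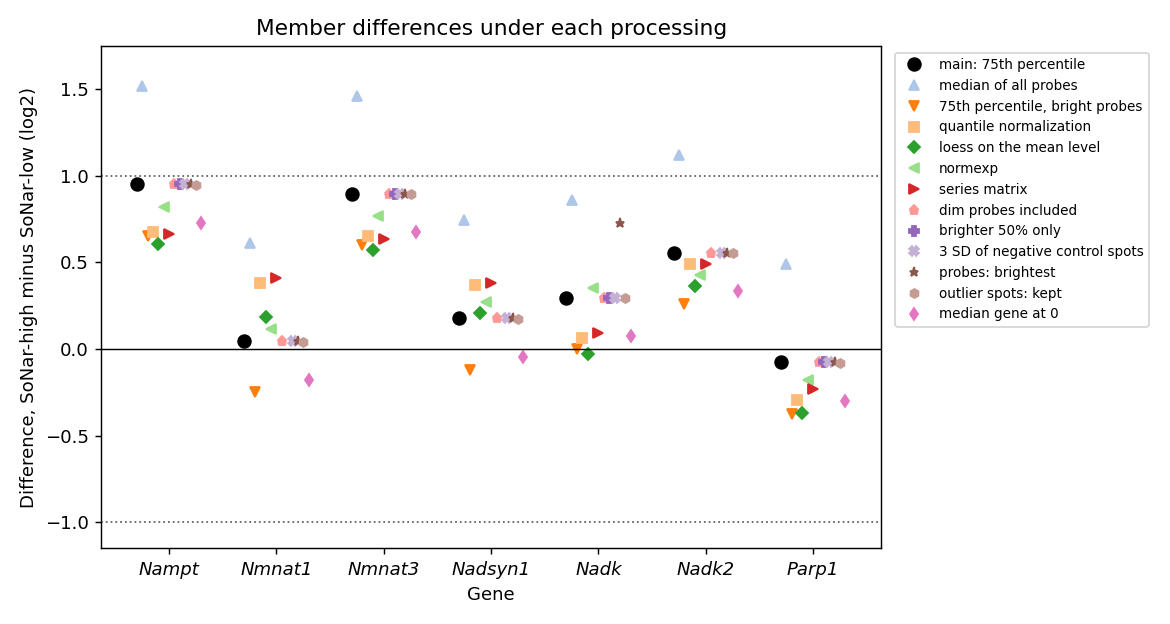
Difference of each member, SoNar-high minus SoNar-low (log2), under the reported processing (black) and 12 alternatives, with dotted lines at 2-fold. Nampt ranges from 0.61 to 1.52 and Nmnat3 from 0.57 to 1.46, all above 0, while the other members lie within 1.12 of 0.

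Nampt is also expressed by neutrophils, so genes of other cells were read beside it. Of 15 neutrophil markers 11 were measured, and 9 of these had differences below 0, with a median of -0.43; their summed scaled signal was 44.1 for SoNar-high and 53.0 for SoNar-low. Markers of monocytes and macrophages had a median of -0.70 (4 of 11 measured) and a summed scaled signal of 0.931 for SoNar-high and 1.27 for SoNar-low. Those of T and NK cells had a median of -1.20 (3 of 10), with sums of 2.06 for SoNar-high and 4.78 for SoNar-low, and lung markers one of -1.87 (3 of 8), with sums of 0.418 and 1.91. A further 4 lung markers were detected with SoNar-low alone, 3 of them with a bound of at least 2-fold. All these sums cover only genes measured on both arrays. Erythroid markers had a median of -1.61 (3 of 9), but their sum was higher with SoNar-high, at 56.5 against 32.5 for SoNar-low, nearly all of it from Hemgn, which lay at 0.89. Most brain markers went the same way as Nampt and Nmnat3. Of 12, 9 were measured: 7 were at least 2-fold higher and 1, Snap25, at least 2-fold lower (-1.04). Their median was 1.73, with a summed scaled signal of 5.58 for SoNar-high and 4.29 for SoNar-low. Snap25 gave 1.36 and 2.78 of these sums. A further 1 was detected with SoNar-high alone, with a bound of at least 2-fold, and 1 with SoNar-low alone, with a smaller bound. Whether brain RNA was present, and whether it had a part in the differences of Nampt and Nmnat3, was not tested.

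The other genes around NAD lay about where all measured genes lay. Of 79 further genes in 8 lists, chosen with earlier results of these data known, 49 were measured on both arrays and had a median of 0.23, against 0.22 for all measured genes. Of the 49, 1 was called higher and 0 lower at 2-fold, and 9 (18.4%) were at least 1.5-fold higher, against 20.4% of all measured genes. A further 0 genes were detected with SoNar-high alone and 19 with SoNar-low alone, and 10 with neither. Of all genes with a probe 26.4% were detected with SoNar-low alone. The lowest signal called well above background was 40.8 units on the SoNar-high array, against 17.7 units on the SoNar-low array. None of the 19 had a bound of 2-fold.

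De novo synthesis from tryptophan and entry from nicotinic acid had 4 of 11 genes measured, with a median of 0.00053, from Kmo (kynurenine monooxygenase, 0.29) and the amino acid carrier gene Slc7a5 (0.13) to Afmid (kynurenine formamidase, -0.13) and Haao (-0.39), whose enzyme makes the precursor of quinolinic acid. Qprt and Naprt, whose enzymes lead from quinolinic acid and nicotinic acid to nicotinic acid mononucleotide, were detected with SoNar-low alone: Qprt gave 16.4 units on the SoNar-high array, against 43.3 units on the SoNar-low array, and Naprt gave 45.2 units on the SoNar-high array, against 76.1 units on the SoNar-low array. Of the salvage of nucleosides 6 of 11 genes were measured: the pyrimidine nucleotidase gene Nt5c3 (0.89) and the purine nucleoside phosphorylase gene Pnp (0.71) stood highest, and the nucleoside carrier gene Slc29a1 (-0.06) and Slc12a8 (-0.15), reported as a nicotinamide mononucleotide carrier, lowest. None of the 3 genes of nicotinamide clearance was measured on both arrays.

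Among the NAD consumers the ADP-ribosyl transferases other than Parp1 spread widest, with 12 of 19 measured, a median of 0.26 and 8 (66.7%) above 0, where 66.9% of all measured genes were. Parp6, a mono-ADP-ribosyl transferase gene, was the 1 gene past 2-fold (1.101, or 2.14-fold): its probe gave 3084 units on the SoNar-high array, against 1654 units on the SoNar-low array. A second Parp6 probe, too dim to be called with SoNar-high, lay at -1.30, so the call rests on 1 probe. Parp6 was past 2-fold under 4 of 12 alternatives and not under 8, from -0.10 with dim probes included to 1.67 with scaling to the median. Parp10 followed at 0.89, while Parp4 (-0.33) and Parp11 (-0.37) were lowest; Parp2, whose enzyme shares DNA repair work with PARP1, was at 0.19, and is named after its value was seen. The NAD glycohydrolase genes Cd38 and Bst1 both lay at 0.23. All 8 genes of ADP-ribose removal were measured, with a median of 0.14, from Parg, the main enzyme that takes chains apart (0.46), and Nudt9 (0.37) to Nudt5 (-0.13) and Adprhl2 (-0.23).

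NAD and NADP transport, repair and hydrolysis had the highest median of these lists, 0.56, with 6 of 9 genes measured. All 6 were above 0, where 66.9% of all measured genes were, and Naxe lay just under the median gene. Noct, which encodes an NADPH phosphatase, was at 0.75, the peroxisomal carrier gene Slc25a17 at 0.66, and the repair genes Naxd and Naxe, whose enzymes restore hydrated NADH and NADPH, at 0.42 and 0.21. Slc25a51, the mitochondrial NAD carrier gene, was at 0.55 with its probes at 0.48 and 0.63; it was named after its value was seen. The list labelled NADPH producers holds genes for NAD- or NADP-linked dehydrogenases and reductases. Not all of their enzymes mainly make NADPH, and that of Fdxr uses it. This list had a median of 0.24 over 11 of 15 genes. It ran from the one-carbon gene Mthfd2l (0.81) and the mitochondrial isocitrate dehydrogenase gene Idh2 (0.56) to Fdxr (0.11) and Aldh1l1 (-0.19).

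**Figure D4:**
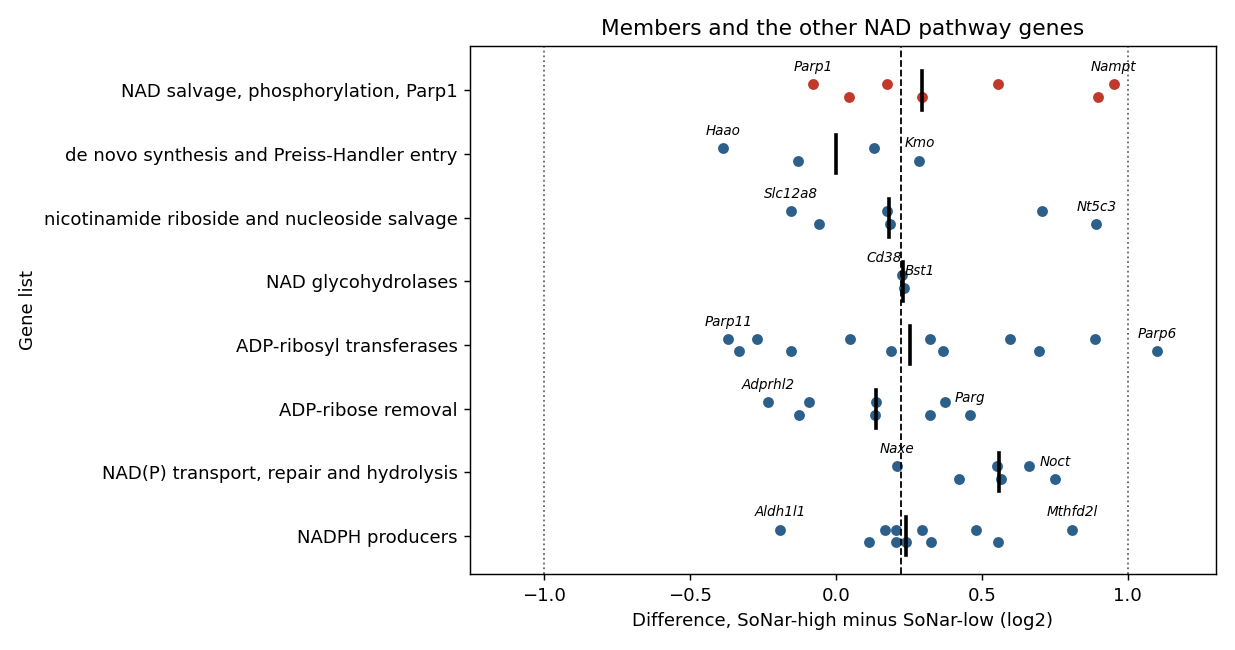
Difference, SoNar-high minus SoNar-low (log2), of each measured gene in the member list (red) and 7 further NAD lists (blue), with list medians (black bars), the median of all genes (dashed) and 2-fold (dotted). Parp6 at 1.101 is the only gene drawn past 2-fold, and nicotinamide clearance has no measured gene.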

How the data were processed

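The deposited scanner files hold an intensity per spot in 1 colour, per the file headers, which name Agilent Feature Extraction 11.0.1.1; the submitters' processing notes give 9.1. The authors' processed signal is background-subtracted and not scaled between arrays, per the file headers. The values of the series matrix are log2 values deposited without a scale, with a median of 5.90 on both arrays and nearly the rank order of the scanner values across probes (Spearman's rho 1.0 for SoNar-high and 0.9998 for SoNar-low), in the same direction; how it was scaled and centred is not given in the sources used here, and it served as an alternative.

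Left out were control spots and those flagged as non-uniform or as population outliers (190 for SoNar-high, 506 for SoNar-low); 0 were saturated. Spots of 1 probe were averaged as log2 values, leaving 39085 probes, and each array's 75th percentile over them was subtracted. Accessions were matched without versions to RefSeq symbols of GRCm38.p6, used for names (27115 probes matched 20618 genes; 11970 had no symbol). A gene's difference averages its probes that both arrays called well above background. The bound of a gene dim on 1 array sets the bright value against the dim probe's own signal or, if higher, the dim array's lowest detected signal. Named are all members, every other NAD gene past 2-fold, and the 2 highest and 2 lowest measured genes of each list. Nmnat2, Qprt, Naprt, Parp2 and Slc25a51 are named outside this rule, with results of these data known. The members and lists were chosen with earlier results of these data known. The step that calls genes past 2-fold was checked on simulated arrays with planted 3-fold changes and little noise. These held no trend of difference with signal level, so the check shows only that the step can recover such changes. It says nothing of the populations. With 2 arrays a pattern holds 1 difference per gene, so no genes most like a member were named. Alternatives were normexp (offset 50, on the median spot signal, as no mean signal is given), other scalings, filters and background calls, the brightest probe, outliers kept, the series matrix and centring on the median gene. Python 3.11.15, numpy 2.4.6, pandas 2.3.3, scipy 1.17.1, statsmodels 0.14.6, matplotlib 3.10.9, R 4.3.3 and limma 3.58.1 were used.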

Additional observations from a re-analysis of the deposited data

How the results depend on the processing

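With 1 array per population no array could be left out, and no paired analysis was possible because each population has 1 array. Nampt and Nmnat3 were above 0 under 12 of 12 alternatives and Nadk2 under 11 of 11, and Parp1 was below 0 under 11 of 12. Among these, the filters on dim probes, the call at 3 SD of negative controls and the brightest probe cannot change the values of these genes. Each has a single measured probe. Signal over background limits Nmnat1, Nadsyn1 and Nadk2, which the filter to the brighter 50% of probes left out. Given next are the values that shifted by over 0.15, the median spot SD, and the counts that shifted by over 1.5 times. Scaling to the median moved the median gene to 0.79 and gave Nampt 1.52, Nmnat3 1.46, Nadk2 1.12, Nadk 0.86, Nadsyn1 0.74, Nmnat1 0.61 and Parp1 0.49, a member median of 0.86, 3 members at least 2-fold higher, 14 other NAD genes and 3380 of all genes higher and 140 lower (96.0% of calls higher, against 35.4% as reported). The 75th percentile of probes detected on both arrays put the median gene at -0.07 and gave 0.66, 0.60, 0.26, 0.0011, -0.12, -0.25 and -0.37 in the same gene order, a member median of 0.0011, 0 other NAD genes higher, and 61 genes higher and 853 lower (6.67%). Centring on the median gene gave 0.73, 0.67, 0.33, 0.074, -0.046, -0.18 and -0.30, a member median of 0.074, 0 other NAD genes higher, and 70 higher and 742 lower (8.62%). Quantile normalization gave Nampt 0.68, Nmnat3 0.65, Nadk 0.062, Nadsyn1 0.37, Nmnat1 0.38 and Parp1 -0.29 (47.0%). The series matrix gave 0.66, 0.63, 0.0925, 0.38, 0.41 and -0.23 in that order, and 430 genes higher (54.5%). Loess gave Nampt 0.61, Nmnat3 0.57, Nadk2 0.36, Nadk -0.029 and Parp1 -0.37, 0 other NAD genes higher and 118 genes higher (18.2%). Normexp gave 0 other NAD genes higher, and 72 genes higher and 241 lower (23.0%). With dim probes included 8 other NAD genes were at least 2-fold lower, partly against background, and 1885 genes higher and 2542 lower. The brighter 50% of probes gave a member median of 0.60 over fewer genes, and 141 higher and 111 lower (56.0%). The call at 3 SD of negative controls gave 0 other NAD genes higher and 1 lower, and 844 genes lower (23.8%). The brightest probe gave Nadk 0.73 and a member median of 0.56. At 1.5-fold 2 members, 9 other NAD genes and 2145 of all genes were higher and 1070 lower; at 3-fold 0 other NAD genes, 31 higher and 133 lower. The cause of these shifts was not tested, except that the scalings move every gene by construction.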
